A study of Mus musculus with 14 samples.

Results

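The genes described here are mouse chaperones and components of the secretory pathway, chosen by gene symbol: heat shock proteins (Hsp), J-domain proteins (Dnaj), the chaperonin CCT, the lectin chaperone Calr, calumenin (Calu), Sdf2 and Sdf2l1, protein disulfide isomerases (Pdia) and Ero1 oxidases, the signal recognition particle and translocon genes (Srp, Sec, Ssr), Kdelr receptors and the COPI and COPII vesicle coats. The matrix proteoglycan gene Hspg2 was left out. The rule found 78 probes of 77 genes among the 7680 probes of the array, which name 6542 genes, and Hspa8 had 2 of these probes. Of the 78 probes, 77 had a value in every line and were tested. The exception, Hspa1l, an HSP70 family gene, had no value on the embryo fibroblast array and gave 1.10 and -0.25 on myeloma arrays 1 and 2. Hspa5, the main HSP70 of the endoplasmic reticulum (ER), and the Kdelr receptors were not among the members found and were not analysed here.

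The study hybridised total RNA of 11 mouse cell lines, labelled with Cy5, to two-colour spotted arrays against a commercial mouse reference RNA pool from Stratagene, labelled with Cy3, and its title asks which genes single lines contribute to that pool. The myeloma line, a plasma cell tumor, had 2 arrays. The fibroblast and mammary tumor lines also had 2 arrays each. The macrophage, T-cell lymphoma, myoblast, embryo fibroblast, skin, liver, kidney and testis lines had 1 each, so that for these lines every value has n = 1. The labels give no strain, treatment, age or culture conditions, do not tell if paired arrays used independent cultures, and carry a short annotation that calls the samples primary tissue although the titles say cell line. P-values therefore rest on array-to-array spread alone, and that spread may be technical. All values are log2 ratios of line over pool, so that 1 is a doubling over the pool, and they describe each gene against its own level in the pool.

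Proteins bound for secretion or for membranes are recognised on the ribosome by the signal recognition particle, threaded through the Sec61 channel into the ER, and folded there by lumenal chaperones and by enzymes that form disulfide bonds. COPII coats carry folded cargo to the Golgi, and COPI coats return escaped ER proteins. Plasma cells secrete large amounts of antibody and are known for a much enlarged ER, built under the transcription factor Xbp1, a branch of the unfolded protein response. Cytosolic HSP70, J-domain proteins and the CCT chaperonin serve proteins that stay in the cytosol, and HSP60 and mitochondrial HSP70 serve the mitochondrion.

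The labelled myeloma line was high in most of the plasma and B cell markers tested. Of 14 listed markers 10 were tested, and 9 were higher there than in the mean of the other 10 lines. Among them Irf4 was higher by 5.67 ± 0.61, Pou2af1 by 4.91 ± 0.35 and Prdm1 by 2.60 ± 0.34 (log2 difference ± standard error of the limma fit). Blnk, by 5.31 ± 0.33, and Ms4a1, by 3.29 ± 0.34, were also higher, while Cd79a differed by 0.12 (adjusted p = 0.905). The list does not separate genes of plasma cells from those of B cells. Markers of other cell types also moved with the line. Of 7 epithelial markers 3 were higher, namely Epcam by 4.55 ± 0.42, Spint2 by 4.35 ± 0.35 and Cldn7 by 4.03 ± 0.39. Epcam stood at 2.15 and 2.59 on the myeloma arrays, against -3.59 to -0.97 on the others. The other epithelial markers were not called, and Cdh1 differed by 1.58, Krt8 by 0.37, Krt19 by -0.99 and Krt18 by -1.92. Of 7 macrophage markers, Ctss was higher by 2.55 ± 0.41 and Cd68 by 2.45 ± 0.27. Cd68 stood at -0.64 and -0.46 on the myeloma arrays, against 2.01 on the macrophage array. The other macrophage markers were not called, with differences from -0.70 for Cd14 to 1.14 for Adgre1. Among 8 fibroblast and matrix markers Loxl1, Col5a2 and Thbs1 were lower, and limma called none of 5 T cell, 5 muscle and 3 liver markers, with 2, 0 and 0 of them at an unadjusted p under 0.05. Without myeloma array 1, 6 plasma and B cell markers were called, and without array 2, 3 were, with 1 epithelial, 0 macrophage and 0 matrix markers. What these other markers contribute to the results below was not tested.

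The members called higher in the myeloma line were all genes of the ER lumen, and those called lower came from other compartments or were a paralog of a channel subunit. Hsp90b1, Sdf2l1 and Pdia4, whose products fold or hold secretory cargo, were higher than in the mean of the other 10 lines by 2.14 ± 0.33, 2.02 ± 0.27 and 1.78 ± 0.28 on the log2 scale. Hspb8, a small heat shock protein, Sec61a2, an alternative channel subunit, and Hspa9, the mitochondrial HSP70, were lower by -2.05 ± 0.35, -1.71 ± 0.35 and -1.40 ± 0.31. The other 71 tested members were not called at an adjusted p under 0.05. The plot of differences by role gives all 77 values.

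The members called numbered 6 of 77, or 7.79%, and over all 7423 tested features limma called 497, or 6.7%, so the share among the members was close to that of the array as a whole. The 3 higher members compare with 3.29% of all features called higher, and the 3 lower members with 3.41% called lower. At an unadjusted p under 0.05, 17 members were higher and 13 lower, beside 11.3% and 11.2% of all features. Both directions together made 39% of the members and 22.5% of all features, and whether these shares differ was not tested. Both myeloma arrays lay above all 12 other arrays for 6 members (Hsp90b1, Pdia4, Ero1b, Dnajc1, Srp54a and Srprb), where 4.98% of all features did so. They lay below all 12 for 6 others (Sec61a2, Cct7, Dnaja1, Dnaja2, Dnajb3 and Dnajb7), where 3.57% of all features did so. The median difference was 0.14 over the members and 0.11 over all features. Centring each array on its median took the median over all features to 0.02 and left 3 members higher and 3 lower, whereas quantile normalization, and likewise scaling the arrays to 1 SD, left 3 higher and 1 lower. The labels do not say what arrays of equal replicate number share, but their deviations from the line means correlated at 0.333 to 0.542. With the replicate number as a block, a choice that rests on these same data, 14 members were called, 7 higher and 7 lower. The block called 1140 features in all (18.2% of members and 15.4% of features). The 8 added by the block were Sdf2, Ero1b, Copa and Dnajb9, which were higher, and Dnaja1, Dnaja2, Cct7 and Dnajb7, which were lower. The count rests on both myeloma arrays, since few or no members stayed called when 1 of them was left out. Leaving out single arrays moved the number of all features called the same way. Both numbers fell when a myeloma or mammary tumor array was left out and rose when a fibroblast array was. The difference of Hsp90b1 was 2.53 without myeloma array 1 and 1.74 without array 2.

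**Figure D1:**
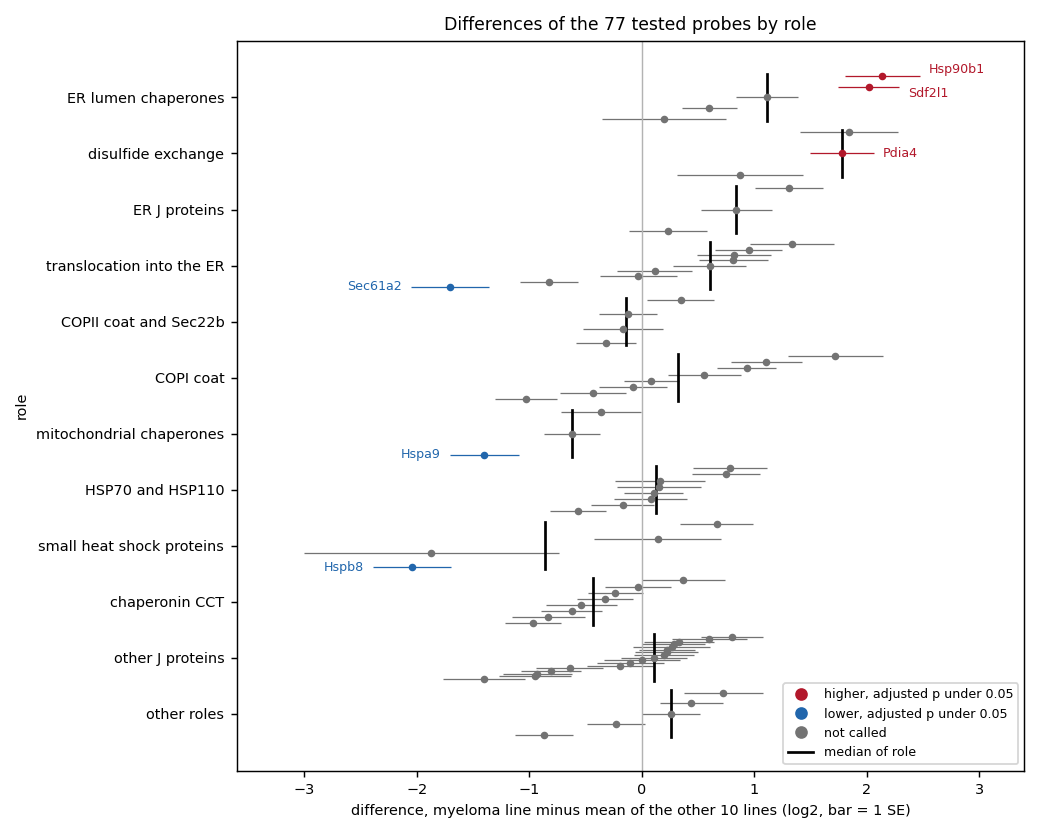
Log2 difference of the myeloma line from the mean of the other 10 lines (horizontal axis) for each of the 77 tested probes, grouped by role (vertical axis). Points are limma estimates, bars are 1 standard error, black ticks are role medians, and the 6 called genes are named: 3 ER genes between 1.78 and 2.14 to the right, and Hspb8, Sec61a2 and Hspa9 between -2.05 and -1.40 to the left.

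Among the ER lumen chaperones, 2 of 5 tested members were higher in the myeloma line, none was lower, and the median difference was 1.11. Hsp90b1, the HSP90 of the ER (also called endoplasmin or GRP94), which folds integrins, Toll-like receptors and other secretory clients, stood at 1.45 and 2.24 on the myeloma arrays, against a lowest, median and highest value of -0.72, -0.29 and 0.51 on the 12 other arrays. No other array came near, the nearest being fibroblast array 2, and the groups did not overlap. The difference was 2.14 ± 0.33, or 4.39-fold (adjusted p = 0.0140), and it was 1.74 (adjusted p = 0.160) without myeloma array 2. Sdf2l1, a partner of ER J proteins that keeps cargo from aggregating, stood at 1.37 and 1.61 on the myeloma arrays, against -1.74, -0.72 and 1.48 as the lowest, median and highest of the others. The T-cell lymphoma array, at 1.48, lay between the 2 myeloma arrays, and the next highest was macrophage at -0.05. Its difference was 2.02 ± 0.27, or 4.04-fold (adjusted p = 0.00819), with adjusted p = 0.0595 without myeloma array 1 and 0.113 without array 2.

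The other 3 ER lumen members were not called. Sdf2, the close relative of Sdf2l1, differed by 1.11 ± 0.27 (adjusted p = 0.0643). It was at -0.01 and 0.26 on the myeloma arrays, and only macrophage, at 0.77, was higher, while the other 11 arrays lay between -2.22 and -0.78. Calr, calreticulin, a lectin chaperone for glycoproteins, differed by 0.60 ± 0.24 (adjusted p = 0.208). Calu, a calcium-binding protein of the ER, differed by 0.20 ± 0.55 and varied widely between lines, with the T-cell lymphoma lowest at -2.87 and the myoblast highest at 0.95.

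The 3 members that move electrons during disulfide bond formation all had positive differences, with a median of 1.78, and 1 was called. Pdia4, a protein disulfide isomerase with thioredoxin-like domains (also called ERp72), stood at 0.98 and 1.51 on the myeloma arrays, against -1.17, -0.73 and 0.71 as the lowest, median and highest of the other 12. Both myeloma arrays lay above all others, and macrophage and T-cell lymphoma were among the lowest, at -1.17 and -1.03. The difference was 1.78 ± 0.28, or 3.43-fold (adjusted p = 0.0151). The adjusted p was 0.0614 without myeloma array 1, 0.166 without array 2 and 0.0507 without mammary tumor array 2. Ero1b, an oxidase that recharges disulfide isomerases, stood at 1.06 and 1.41 on the myeloma arrays, against -1.70, -0.34 and 0.10 on the others. The groups did not overlap, and the difference of 1.84 ± 0.43 missed the threshold (adjusted p = 0.0572). The adjusted p was 0.0366 under the replicate block and 0.0305 against the 4 other lines of the myeloma arrays' own image run. Ero1b stayed uncalled in 11 of 16 alternative settings. Ero1a, its paralog, which hypoxia is known to induce, was at -1.20 and 0.45 on the myeloma arrays and differed by 0.87 ± 0.56. The 2 paralogs thus differed in their lowest lines, since Ero1a was lowest on the mammary tumor arrays, at -3.14 and -2.20.

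**Figure D2:**
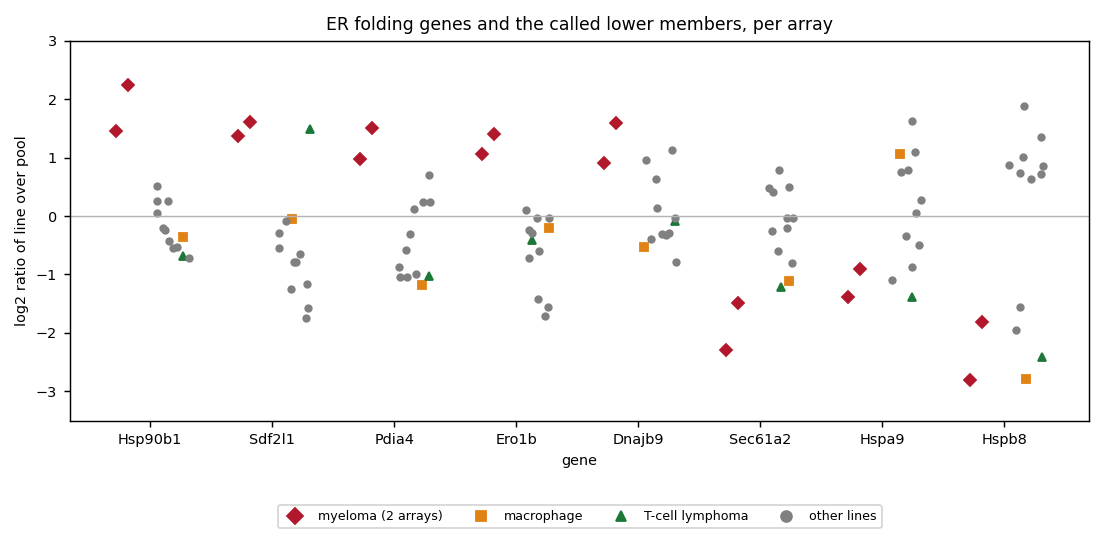
Log2 ratio of line over pool (vertical axis) on each of the 14 arrays for 5 ER folding genes and the 3 members called lower (horizontal axis). Red diamonds are the 2 myeloma arrays, orange squares macrophage, green triangles T-cell lymphoma and grey circles the other lines. The myeloma arrays lie above all others for Hsp90b1, Pdia4 and Ero1b, share the top with T-cell lymphoma for Sdf2l1, and lie below all others for Sec61a2, whereas other lines reach their level for Hspa9 and Hspb8.

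The promoters of the 3 members called higher are shown here because genes of this group are known to be controlled through the ER stress response element, a CCAAT box and a CCACG box separated by 9 bases. Sequences were taken from RefSeq (GRCm38.p6), which held 89 promoters for 70 of the 77 member genes, each running from 250 bases before to 50 bases after the start site. Capitals mark CCAAT and CCACG on either strand (ATTGG and CGTGG on the strand printed).
Hsp90b1 promoter, chr10:86705395-86705694, minus strand: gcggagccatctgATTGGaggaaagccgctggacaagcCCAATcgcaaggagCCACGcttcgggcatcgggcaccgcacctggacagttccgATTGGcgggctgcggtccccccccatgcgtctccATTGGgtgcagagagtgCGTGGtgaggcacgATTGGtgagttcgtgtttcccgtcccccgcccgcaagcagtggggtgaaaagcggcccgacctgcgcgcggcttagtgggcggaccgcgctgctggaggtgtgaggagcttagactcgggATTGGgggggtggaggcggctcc
Sdf2l1 promoter, chr16:17132334-17132633, minus strand: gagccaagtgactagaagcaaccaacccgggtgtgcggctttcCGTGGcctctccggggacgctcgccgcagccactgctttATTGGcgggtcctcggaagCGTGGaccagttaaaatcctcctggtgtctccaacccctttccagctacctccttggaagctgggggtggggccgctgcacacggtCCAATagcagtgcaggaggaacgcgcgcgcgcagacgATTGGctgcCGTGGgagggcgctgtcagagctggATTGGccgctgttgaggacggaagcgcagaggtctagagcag
Pdia4 promoter, chr6:47813463-47813762, minus strand: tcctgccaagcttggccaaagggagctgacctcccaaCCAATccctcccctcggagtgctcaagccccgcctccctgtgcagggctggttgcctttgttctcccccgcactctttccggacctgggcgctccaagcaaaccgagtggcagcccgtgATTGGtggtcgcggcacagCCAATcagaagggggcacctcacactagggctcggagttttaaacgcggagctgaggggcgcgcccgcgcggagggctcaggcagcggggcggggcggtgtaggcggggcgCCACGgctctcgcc
The complete element, searched on both strands with any bases as spacer, was found at 2 places in the Hsp90b1 window and not in the Sdf2l1 or Pdia4 window. It was present in 39 of all 32851 RefSeq mouse promoters of this length (0.119%). Single boxes were common, with CCAAT in 37.4% and CCACG in 32.8% of all promoters.

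Among the members, the element was found in 4 promoters, of Hsp90b1, Ero1b, Calr and Dnajc3. Their matches are given with 10 bases on each side, positions counted from the start site and the element in capitals, so that the shared outer boxes and the free spacer can be compared.
Hsp90b1, -212 to -194, chr10:86705628-86705666, minus strand: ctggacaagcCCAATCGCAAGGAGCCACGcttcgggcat
Hsp90b1, -107 to -89, chr10:86705523-86705561, minus strand: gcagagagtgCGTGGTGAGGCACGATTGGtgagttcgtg
Ero1b, -201 to -183, chr13:12565672-12565710, plus strand: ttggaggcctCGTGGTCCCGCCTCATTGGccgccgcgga
Calr, -162 to -144, chr8:84847065-84847103, minus strand: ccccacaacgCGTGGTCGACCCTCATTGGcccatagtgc
Dnajc3, -105 to -87, chr14:118937817-118937855, plus strand: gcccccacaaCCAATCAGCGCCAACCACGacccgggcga
The differences of these 4 genes in the myeloma line were 2.14 for Hsp90b1, 1.84 for Ero1b, 0.60 for Calr and 0.23 for Dnajc3, and of these only Hsp90b1 was called. A related element bound by Xbp1 and Atf6, searched as TGACGTGG on both strands, was found in 0.676% of all promoters and in those of 3 members, Copb1, Copb2 and Sec23a, which differed by 1.11, 0.56 and 0.34 with no call. The heat shock element, searched as 3 alternating GAA and TTC units spaced by 2 bases, was found in 0.603% of all promoters and in those of Hspd1, Hspe1, Dnajb6 and Hsph1. Hspd1 and Hspe1, which encode HSP60 and its co-chaperonin HSP10, lie head to head and share the same stretch. Their differences in the myeloma line ran from -0.62 to -0.19, none was called, and that of Hspe1 was 0.22 without myeloma array 2. These matches describe letters in the windows searched and do not show binding.

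The 3 J-domain proteins of the ER, which hand substrates to the ER HSP70, had positive differences with a median of 0.84, and none was called, with 2 at an unadjusted p under 0.05. Dnajb9, known as ERdj4 and an established Xbp1 target, stood at 0.91 and 1.59 on the myeloma arrays, against -0.78, -0.19 and 1.13 as the lowest, median and highest of the others. Fibroblast array 1 and the myoblast array, at 1.13 and 0.95, exceeded myeloma array 1 and not array 2. The difference of Dnajb9 was 1.31 ± 0.30 (adjusted p = 0.0540, and 0.0394 under the replicate block), and it stayed uncalled in 12 of 16 alternative settings. Dnajc1, a membrane J protein at the translocon, lay above all other arrays at 0.80 and 0.44 and differed by 0.84 ± 0.31 (adjusted p = 0.179). Dnajc3, known as p58IPK, differed by 0.23 ± 0.35, and by -0.02 to 0.42 over the alternatives.

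Of 9 members that carry proteins into the ER, none was higher at the threshold, 1 was lower, and the median difference was 0.60. Positive differences were found for Srp54a, the GTPase that binds signal peptides (1.33 ± 0.37, adjusted p = 0.0903), for Sec61a1, the main channel subunit (0.95 ± 0.30, adjusted p = 0.118), for Ssr4, a translocon-associated protein (0.82 ± 0.33), and for Srprb, a subunit of the receptor for the signal recognition particle (0.81 ± 0.31). Srp54a and Srprb lay above all other arrays on both myeloma arrays, Srp54a at 0.46 and 1.02 and Srprb at 0.80 and 0.77. Srp14, a subunit of the particle that acts in elongation arrest, ran the other way (-0.82 ± 0.26, adjusted p = 0.118). Sec61a2, a paralog of Sec61a1, stood at -2.30 and -1.49 on the myeloma arrays, against -1.21, -0.12 and 0.79 as the lowest, median and highest of the other 12. The myeloma arrays lay below all others, followed by T-cell lymphoma at -1.21 and macrophage at -1.11. Its difference was -1.71 ± 0.35, or 3.26-fold lower (adjusted p = 0.0356), the opposite in sign to its paralog. The adjusted p of Sec61a2 was 0.237 without myeloma array 1, 0.120 without array 2, 0.0709 and 0.0817 without mammary tumor array 1 or 2, 0.0604 with quantile normalization and 0.0724 against the lines of the same image run.

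The vesicle coats held no called member. The 4 members made up of COPII coat genes and Sec22b, a SNARE of ER to Golgi traffic, had small differences, from -0.32 for Sec24b to 0.34 for Sec23a, both coat subunits, with none at an unadjusted p under 0.05. Of the 8 COPI coat members, 5 had positive differences as deposited and 4 under each of the 3 other scalings, and 3 were higher and 1 lower at an unadjusted p under 0.05. Copa, the alpha subunit, differed by 1.72 ± 0.42 (adjusted p = 0.0643, and 0.0180 under the replicate block), and stayed uncalled in 14 of 16 alternative settings. It was at 0.32 and 1.36 on the myeloma arrays, against -2.83 on the macrophage and 0.66 on the highest of the other arrays. Copb1 and Cope, the beta and epsilon subunits, differed by 1.11 ± 0.31 and 0.93 ± 0.26 (adjusted p = 0.0917 and 0.0929). Copz2, the second form of the zeta subunit, was the lowest of the group at -1.03 ± 0.27 (adjusted p = 0.0798), and its paralog Copz1 differed by -0.44 ± 0.29. Copz2 varied over 4.71 log2 units between lines, with myoblast highest at 2.02 and T-cell lymphoma lowest at -2.69, while Copz1 varied over 1.56.

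The 3 mitochondrial chaperones had negative differences under all 4 scalings, with a median of -0.62 as deposited, and 1 was called. Hspe1, at 0.69 and -0.48 on the myeloma arrays, turned to 0.22 without myeloma array 2. Hspa9, the mitochondrial HSP70 known as mortalin, stood at -1.38 and -0.91 on the myeloma arrays, against -1.39, 0.16 and 1.63 as the lowest, median and highest of the others. T-cell lymphoma, at -1.39, was as low, and mammary tumor array 1, at -1.09, lay between the 2 myeloma arrays. The difference was -1.40 ± 0.31, or 2.64-fold lower (adjusted p = 0.0458). The adjusted p was 0.273 and 0.184 without myeloma array 1 or 2, 0.113 and 0.121 without mammary tumor array 1 or 2, and 0.0540 with quantile normalization. Hspd1 (HSP60) and Hspe1 (HSP10) differed by -0.62 ± 0.25 and -0.36 ± 0.35. Over the 11 line means Hspd1 and Hspa9 correlated with Pearson r = 0.72, a description over lines that share the reference channel.

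The 8 probes of cytosolic HSP70 and HSP110 genes had a median difference of 0.13 (0.01 to 0.04 under the other scalings), and none was called, with 1 higher at an unadjusted p under 0.05. Probes A and B of Hspa8, the constitutive cytosolic HSP70, differed by 0.78 ± 0.33 and 0.15 ± 0.37, neither called. They also disagreed in their spread, since probe A spanned 1.43 log2 units between lines and probe B 4.01, from -1.93 in embryo fibroblast to 2.08 in T-cell lymphoma. Hspa4, an HSP110 that releases nucleotide from HSP70, differed by 0.75 ± 0.30, Hspa1a, the heat-inducible HSP70, by 0.10 ± 0.27 and Hsph1 by -0.57 ± 0.25. Hspa4l, a relative of Hspa4, was highest in T-cell lymphoma at 2.38, against a range of -0.81 to 1.22 on the other 11 arrays that were not myeloma.

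Of 4 small heat shock proteins, which hold unfolding proteins without ATP, 1 was lower. Hspb8, which with Bag3 directs damaged proteins to autophagy, stood at -2.81 and -1.80 on the myeloma arrays, against -2.79, 0.72 and 1.88 as the lowest, median and highest of the others. Macrophage, T-cell lymphoma, testis and myoblast lay between -2.79 and -1.55, and the 8 remaining arrays lay between 0.64 and 1.88. Macrophage, T-cell lymphoma and testis lay between the 2 myeloma arrays, so the groups overlapped. The difference was -2.05 ± 0.35, or 4.13-fold lower (adjusted p = 0.0188), with adjusted p = 0.137 without myeloma array 1, 0.0748 without array 2 and 0.0838 against the lines of the same image run. Hspb1 (HSP25) had the widest span of any member, 6.75 log2 units, from -4.20 in testis to 2.55 in myoblast. It was at -3.51 on myeloma array 1 and had no value on array 2, and the difference of -1.87 ± 1.14 rests on 1 myeloma array. Hspb7 and Hspb3 differed by 0.66 ± 0.32 and 0.14 ± 0.56.

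Subunits of CCT, the cytosolic chaperonin that folds actin and tubulin, had negative differences for 7 of 8 members under each of the 4 scalings, with a median of -0.44 as deposited and Cct2 near 0 at -0.04, and none was called, with 2 lower at an unadjusted p under 0.05. Cct7 stood at -0.84 and -0.65 on the myeloma arrays, below the lowest other array, mammary tumor 1 at -0.39. The difference of Cct7 was -0.97 ± 0.25 (adjusted p = 0.0706, and 0.0348 under the replicate block), and it stayed uncalled in 15 of 16 alternative settings. Cct6b, a subunit form best known from testis, was the exception at 0.37 ± 0.37. Between the lowest and the highest line, the CCT subunits spanned from 0.88 log2 units for Cct6b to 2.57 for Cct6a, which was highest in embryo fibroblast at 1.61.

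The other 17 J proteins, mostly cytosolic and nuclear, had a median difference of 0.11 (0.02 to 0.09 under the other scalings), and none was called, with 1 higher and 4 lower at an unadjusted p under 0.05. Dnajb5 had the highest difference, 0.80 ± 0.27, and Dnajb3 the lowest, -1.40 ± 0.37 (adjusted p = 0.0740). Dnaja1 and Dnaja2, farnesylated partners of cytosolic HSP70, stood below all other arrays, at -0.84 and -0.76 for Dnaja1 and at -0.74 and -0.53 for Dnaja2. They differed by -0.93 ± 0.31 and -0.95 ± 0.32 (adjusted p = 0.136 and 0.143), and the replicate block gave adjusted p values of 0.0388 and 0.0316. Dnajb6 had the narrowest span of all members, 0.56 log2 units between its lowest and highest line. The symbol rule also took in 5 genes of other roles, the kinases Srpk1, Srpk2 and Srpk3, which act on splicing factors, the sushi repeat protein Srpx and Sec1, a fucosyltransferase gene. These differed by -0.87 for Srpk1 to 0.72 for Srpk2, with no call.

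**Figure D3:**
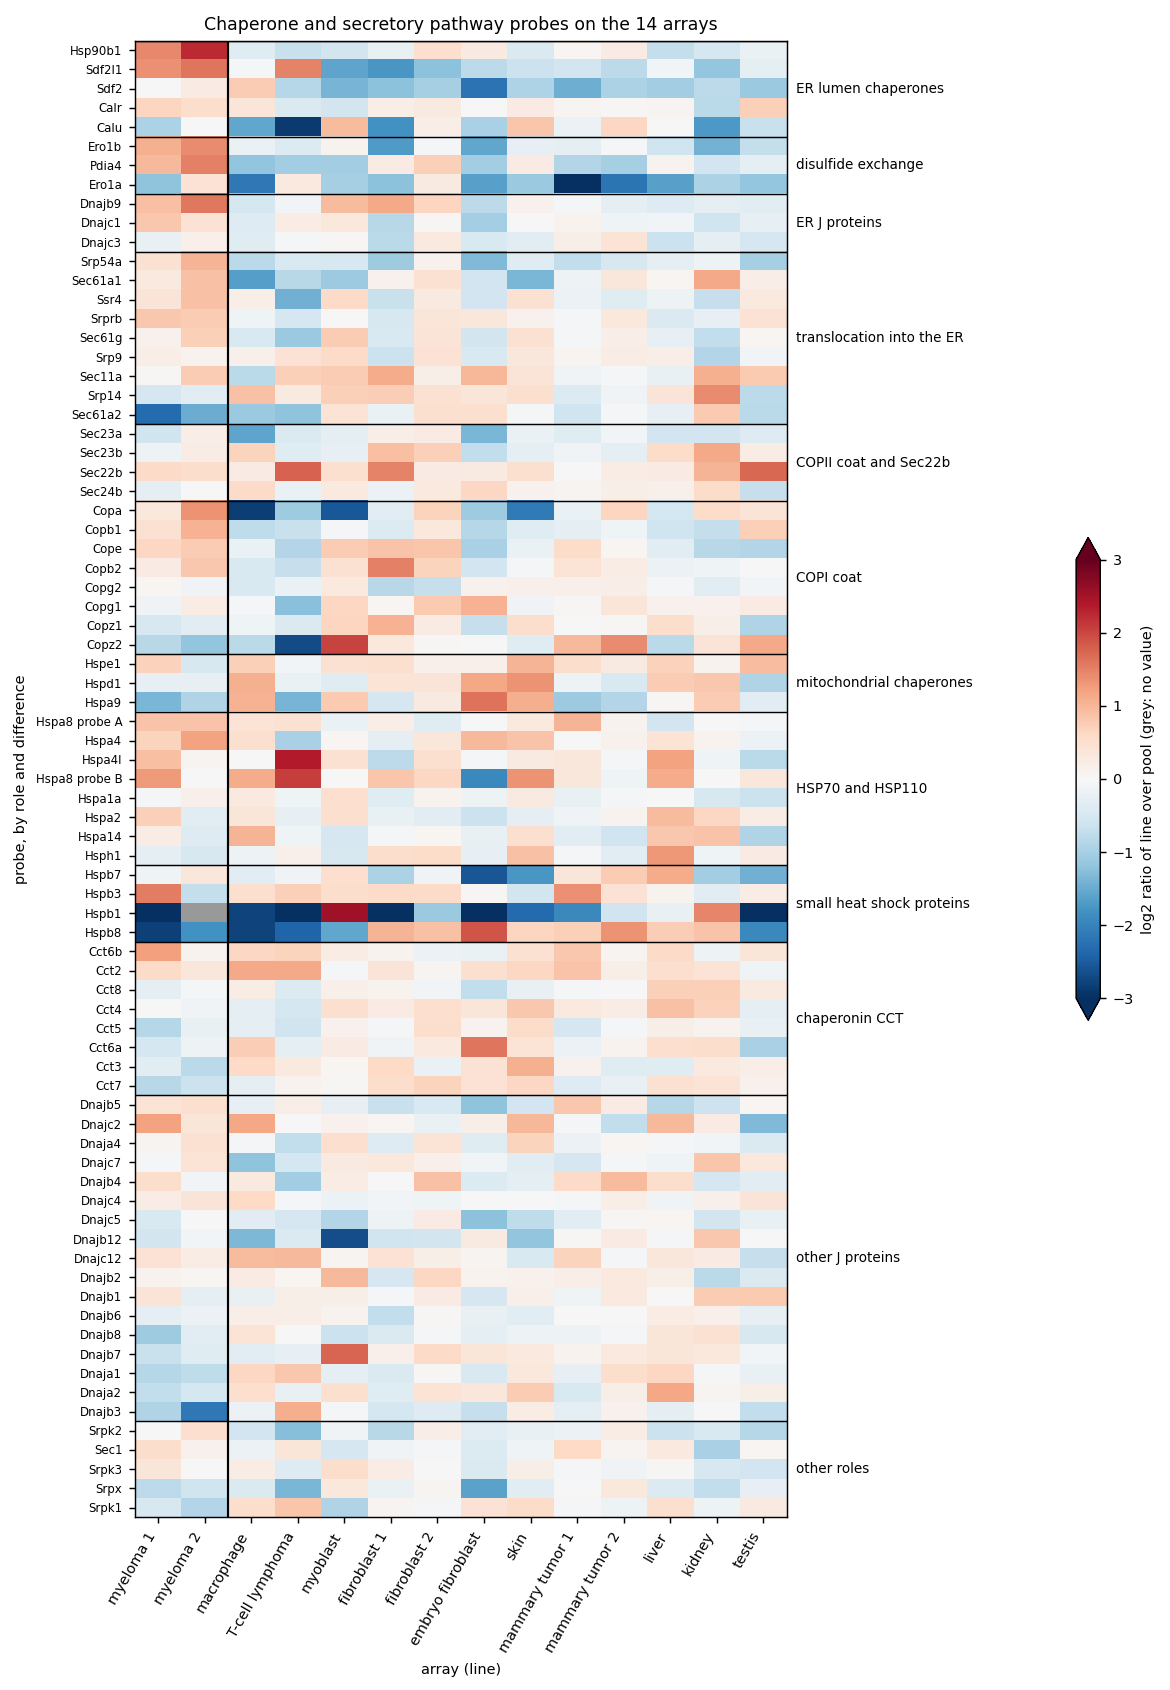
Log2 ratio of line over pool (colour, red above and blue below the pool) for the 77 tested probes (rows, ordered by role and by myeloma difference) on the 14 arrays (columns, myeloma left of the line). Red cells at the upper left are myeloma levels of ER folding genes, up to 2.24 for Hsp90b1. Not all genes there are red, since Calu and Ero1a stood at -0.95 and -1.20 on myeloma array 1. The widest contrasts between the other lines are those of Hspb1, Hspb8 and Copz2.

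Set against the other blood-cell lines, macrophage and T-cell lymphoma, the myeloma line had 1 called member, Pdia4, at 0.98 and 1.51 on the myeloma arrays, against -1.17 on macrophage and -1.03 on T-cell lymphoma, a difference of 2.35 ± 0.37 or 5.10-fold (adjusted p = 0.0386). This comparison called 1.55% of all features, and its standard errors are larger than those against all 10 lines (0.43 against 0.33 for Hsp90b1). Hsp90b1 differed by 2.36 (adjusted p = 0.0569), and Sdf2l1, which T-cell lymphoma shared, by 0.77 (adjusted p = 0.334). With the replicate block 3 of 77 members (3.9%) were called, Pdia4, Hsp90b1 and Copa, beside 2.72% of all features. None was called with quantile normalization, with arrays scaled to 1 SD, or without any one of the myeloma or mammary tumor arrays, where the adjusted p of Pdia4 was between 0.0907 and 0.226.

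Taken as a class with the line as the replicate, the 3 blood-cell lines differed from the other 8 lines in 3 members, a comparison added after the data had been seen, which called 3.22% of all features. Sdf2l1 was higher by 1.81 (adjusted p = 0.0320), Sec61a2 lower by -1.46 (adjusted p = 0.0406) and Hspb8 lower by -2.82 (adjusted p = 0.0422). For Sec61a2 the 3 line means lay between -1.90 and -1.11, against -0.80 to 0.79 in the other 8, and for Hspb8 between -2.79 and -2.31, against -1.94 to 1.88. None of the members was called without the myeloma line, without T-cell lymphoma or with quantile normalization, and 1 was without macrophage.

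The same fit was read for each other line against its own remaining 10, comparisons that share arrays with each other and with the myeloma comparison. The macrophage line was higher in Sdf2 (1.82 ± 0.37, adjusted p = 0.0491) and lower in Hspb8 (-2.57 ± 0.47, adjusted p = 0.0373), where 4.07% of all features were called. T-cell lymphoma was higher in Sdf2l1 (2.01 ± 0.37, adjusted p = 0.0338) and lower in Copz2 (-2.88 ± 0.37, adjusted p = 0.0163), where 4.58% of all features were called. In each of these 2 lines the called pair thus joined an Sdf2 family gene above the pool with a different gene below it. The myoblast line was lower in Dnajb12, a J protein of the ER membrane facing the cytosol, by -2.38 ± 0.36 (adjusted p = 0.0470), where 0.795% of features were called. Embryo fibroblast was higher in Hspb8 by 2.56 ± 0.47 (adjusted p = 0.0499), where 2.21% were called. Copz2 in T-cell lymphoma stayed called without any single array of the 3 paired lines and lost its call under quantile normalization (adjusted p = 0.0525). The calls of Hspb8 in embryo fibroblast and macrophage, Sdf2 in macrophage, Dnajb12 in myoblast and Sdf2l1 in T-cell lymphoma were each lost without either mammary tumor array, with adjusted p between 0.0695 and 0.132. Quantile normalization ended 4 of these 5 calls (adjusted p = 0.0732 and 0.152 for Hspb8 in embryo fibroblast and macrophage, 0.124 for Sdf2 and 0.176 for Sdf2l1), and scaling to 1 SD ended all 5. The Sdf2 call was also lost on median centring (adjusted p = 0.0567), and that of Dnajb12 with the image run as a random block (adjusted p = 0.0942). The calls of Hspb8 in embryo fibroblast, Sdf2, Dnajb12 and Sdf2l1 were lost without either myeloma array as well, and that of Hspb8 in macrophage was kept. Hspb8 in embryo fibroblast also lost its call without either fibroblast array.

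In the 6 remaining lines limma called no member as deposited. In mammary tumor 3 members were called with quantile normalization (Copz2, higher, and Ero1a and Hspa9, lower), where 4.42% of all features were, and Ero1a and Hspa9 were called with arrays scaled to 1 SD and with the replicate block. The share of all features called was 1.23% in fibroblast, 0.862% in mammary tumor, 0.35% in testis, 0.0135% in liver and 0.0135% in kidney, and 0% in skin, where 602 features had an unadjusted p under 0.05. The members at an unadjusted p under 0.05 numbered 10 in fibroblast, 12 in mammary tumor, 12 in testis, 3 in liver, 12 in kidney and 7 in skin. These are 13%, 15.6%, 15.6%, 3.9%, 15.6% and 9.09% of the members, beside 13.9%, 14.5%, 11.9%, 8.19%, 17.4% and 8.11% of all features in the same lines, so the members were at or below the array in fibroblast, liver and kidney. Under the replicate block the members called were 10 in T-cell lymphoma, 7 in embryo fibroblast, 6 in myoblast, 4 in macrophage, 3 in kidney and 2 in mammary tumor. The block also raised the share of all features called, to 12.9% in T-cell lymphoma, 12.6% in embryo fibroblast, 6.2% in myoblast, 9.38% in macrophage, 4.67% in kidney and 3.22% in mammary tumor, and the member shares of 13%, 9.09%, 7.79%, 5.19%, 3.9% and 2.6% in the same order were near or below these. By line mean, myeloma was the highest line for 13 members and the lowest for 8. Myoblast was highest for 12 and T-cell lymphoma for 11, and the lowest line was most often embryo fibroblast (17 members), T-cell lymphoma (15) or testis (13). The embryo fibroblast and kidney arrays had low medians over all features, at -0.51 and -0.41.

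Other genes of the same pathways on the array were read from 3 lists written from textbook knowledge, with earlier results of these data already known. Of a list of ER folding and unfolded protein response genes, 33 probes of 32 genes were tested. In the myeloma line 8 (24.2%) were called, 4 higher and 4 lower, where 6.7% of all features were called. The median difference of the list was 0.24. Xbp1 was higher by 3.32 ± 0.32, at 2.15 and 2.60 on the myeloma arrays, against -2.16 to -0.31 on the others. Xbp1 also stands on the plasma and B cell marker list, so the 2 lists are not independent in it. Sel1l, an adaptor of ER-associated degradation (2.13 ± 0.44, adjusted p = 0.0371), Prdx4, the peroxiredoxin of the ER (1.33 ± 0.26, adjusted p = 0.0315), and Atf6b, a relative of the stress sensor Atf6 (1.30 ± 0.27, adjusted p = 0.0369), were also higher. Hyou1 and Wfs1, an ER HSP110 and an ER membrane protein, differed by 1.38 and 1.35 (adjusted p = 0.0513 each). P4hb, Herpud1 and Canx of the same list differed by 0.18, 0.20 and -0.31 (adjusted p = 0.768, 0.727 and 0.586). Of the 33 probes, 20 had positive differences.

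Among the lower genes of that list, Ddit3, the transcription factor CHOP, was lower by -2.68 ± 0.25 (adjusted p = 0.00287), at -2.63 and -2.42 on the myeloma arrays, against -0.80 to 1.22 on the others. Atf4, a transcription factor upstream of it, was lower by -1.87 ± 0.26 (adjusted p = 0.00918), at -1.36 and -1.62, against -1.27 to 1.47. Ppp1r15a (GADD34), which restores translation, was lower by -1.46 ± 0.29 (adjusted p = 0.0321). Eif2ak3, the kinase Perk that acts above Atf4, differed by 0.71 ± 0.32 (adjusted p = 0.251), and the Atf4 targets Atf3 and Asns by -0.18 and -0.31 (adjusted p = 0.898 and 0.544). The myeloma arrays lay below all others for Ddit3 and Atf4, and T-cell lymphoma, at -2.09, lay below them for Ppp1r15a. Serpinh1 (HSP47), the collagen chaperone, was lower by -2.94 ± 0.48 with one probe (adjusted p = 0.0170) and differed by -1.35 ± 0.35 with its second (adjusted p = 0.0729). With quantile normalization 2 genes were higher and 4 lower, and with arrays scaled to 1 SD 1 was higher and 4 lower. Prdx4 and Atf6b were lost in both (adjusted p between 0.0637 and 0.0829), and Sel1l with scaling and with the image run as a random block (0.0591 and 0.0642). Sel1l, Prdx4, Atf6b and Ppp1r15a also lost their calls when either mammary tumor array was left out. The replicate block called 15.4% of all features. The list's calls numbered 16 under the replicate block, 10 higher and 6 lower, while 2 genes were called without myeloma array 1 and none without array 2, where the adjusted p was 0.0516 for Ddit3 and 0.0661 for Xbp1.

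Of 46 probes of N-glycosylation and ER export genes, 3 (6.52%) were higher and none lower, with a median of 0.19. That share was close to the 6.7% of all features called in this comparison. Rpn2 and Ddost, subunits of the oligosaccharyltransferase, were higher by 1.81 ± 0.30 and 1.35 ± 0.25 (adjusted p = 0.0170 and 0.0239), and Prkcsh, the beta subunit of glucosidase II, by 1.60 ± 0.29 (adjusted p = 0.0248). For these genes both myeloma arrays lay above all the others. None of the 3 was called without any one of the myeloma or mammary tumor arrays. Of 25 cytosolic and mitochondrial co-chaperone probes limma called none, and the median was -0.22. At an unadjusted p under 0.05, 1 was higher and 5 lower, beside 11.3% and 11.2% of all features. Pfdn6, a prefoldin subunit, was the lowest of them at -1.57 ± 0.41 (adjusted p = 0.0769) and Vbp1, another, the highest at 1.30 ± 0.39 (adjusted p = 0.103).

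**Figure D4:**
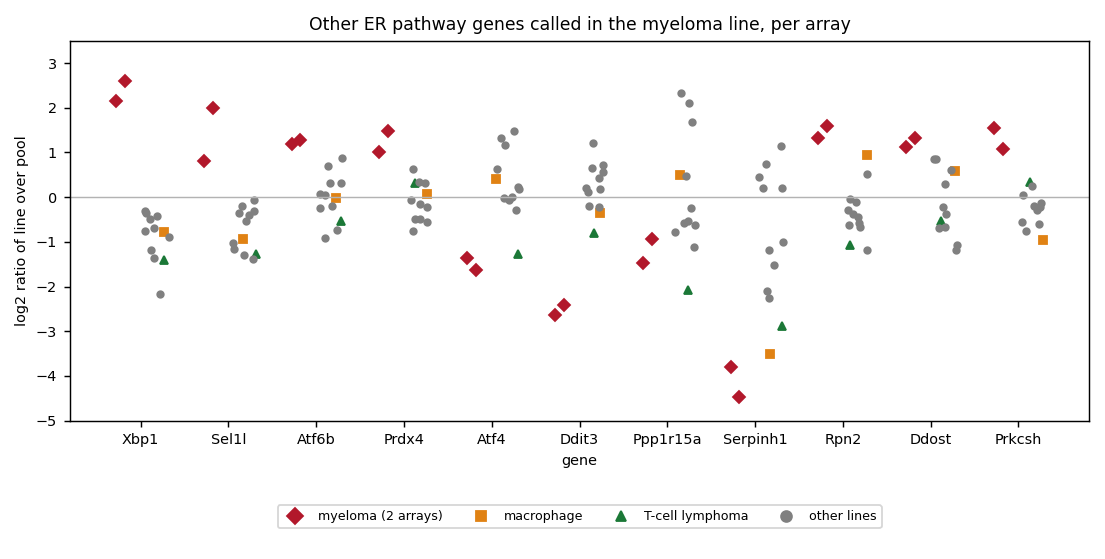
Log2 ratio of line over pool (vertical axis) on each of the 14 arrays for the 11 pathway genes called in the myeloma line that are no chaperone members (horizontal axis), with symbols as in the plot of members. Xbp1, Sel1l, Atf6b, Prdx4, Rpn2, Ddost and Prkcsh have both myeloma arrays above all others, and Ddit3, Atf4 and Serpinh1 have them below all others.

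Over the 11 line means, the genes outside the set whose profile was most like that of Hsp90b1 were Ctse, an aspartic protease (Pearson r = 0.888), Xbp1 (r = 0.882), Irf4 (r = 0.878), Mast4 (r = 0.873) and Akirin1 (r = 0.853). These r values are descriptions over 11 lines that share the reference channel, and the myeloma means of these genes were 2.14 for Ctse, 2.37 for Xbp1, 2.99 for Irf4, 0.77 for Mast4 and 0.78 for Akirin1. Within the set, Hsp90b1 correlated with Pdia4 at r = 0.59, with Ero1b at 0.54, with Dnajb9 at 0.50 and with Sdf2l1 at 0.36. Sdf2l1 and Sec61a2 ran against each other at r = -0.88, and Sec61a2 and Hspb8 ran together at 0.75. These pairs within the set come from chosen members that include those called in the myeloma line. Their r values use the same line means and are not independent of those calls.

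Over the members, the 2 arrays of a line correlated at r = 0.68 for myeloma (76 members), 0.56 for fibroblast and 0.72 for mammary tumor. Over all features r was 0.68, 0.38 and 0.67 in the same order, lowest for the fibroblast pair. Members were on average 0.34 higher on fibroblast array 2 than on array 1. The median absolute difference between the 2 arrays was 0.39 log2 units for myeloma, 0.46 for fibroblast and 0.28 for mammary tumor. Both myeloma arrays come from image run 4, together with the macrophage, liver and testis arrays and fibroblast array 2. Against the 4 other lines of that run, 5 of 77 members (6.49%) and 6.6% of all features were called, the members being Ero1b, Sdf2l1, Hsp90b1, Pdia4 (higher) and Hspa9 (lower), with Hsp90b1 at 2.04 (adjusted p = 0.0282).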

How the data were processed

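Per the labels, Cy5 marked a line's total RNA and Cy3 the reference pool on all 14 arrays, without a dye swap. The reference label of mammary tumor array 1 has further letters. The deposited values, 1 per spot and already processed by the authors, were read as log2 ratios of line over pool. Steps not given in the sources used here include the authors' background correction, normalization and filters. The base and the sign were judged from the values: if lines entered the pool in equal parts, unlogged ratios average 1 per probe over the lines. Read as log2 of line over pool, that mean had a median of 1. The median was 1.07 in natural logs, 1.2 in log2 of pool over line and 1.87 in log10. Base 2 is thus only weakly separated from natural logs, every fold rests on it, and centring stays unknown. Array medians ran from -0.508 to 0.124.

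Of 7680 probes, 6835 had 1 gene symbol, 4 several and 841 none, and 6809 were matched to RefSeq genes. The 80 Gapdh spots were averaged, and of 7601 features the 7423 measured in every line were tested. The myeloma line minus the other 10 lines, each weighted equally, was fitted over all 14 arrays with limma 3.58.1 (lmFit, eBayes, two-sided) in R 4.3.3, with 3 residual and 3.75 prior degrees of freedom. Lines with 1 array borrow their variance from the paired lines. A call is a Benjamini-Hochberg adjusted p under 0.05 over all tested features. Errors are standard errors of the fit, and the number of arrays limits the precision. The fit was tested on simulated data. Figures used matplotlib 3.10.9 in Python 3.11.15. Probes of a gene were tested separately.

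Members and gene lists were chosen with earlier results of these data known. Named genes are every called member, the extremes of each role, up to 3 called members per other line, the called list genes, genes whose probes differ, and the 5 profiles most like Hsp90b1. Further members are named beside their paralogs or subunits, or for a value near the threshold or an extreme spread, and these were chosen after their values were seen. The labels' replicate numbers were checked as a pairing: deviations of same-numbered arrays from their line means correlated at 0.542 (mammary tumor and fibroblast), 0.384 (myeloma and mammary tumor) and 0.333 (myeloma and fibroblast). Values with the replicate block are given where they change a call, although the labels do not say what equal numbers share. Image runs were read from image numbers in the labels. Alternatives were other scalings, a feature filter, a robust fit, image run and replicate number as blocks, arrays left out and other sets of lines.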

Additional observations from a re-analysis of the deposited data

How the results depend on the processing

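As deposited, 6 members were called in the myeloma line against the other 10 lines. With the replicate block the count was 14. With single arrays of the 3 paired lines left out, the count of members and that of all features moved the same way. Few or no members stayed called when a myeloma array was left out. Under the other alternatives the count of members ran from 4 to 9, and no named difference that was called reversed its sign. Of all features, 6.7% were called as deposited, 5.16% with quantile normalization, 4.97% with scaling to 1 SD and 15.4% with the replicate block. All 6 remained called with arrays centred, with complete features, with a robust fit, with the image run as a random block and with the replicate block. Under quantile normalization, under scaling to 1 SD and without the embryo fibroblast and kidney lines, 4 remained, with Hspa9 and Sec61a2 lost each time. Each setting without a replicate tests with 2 residual degrees of freedom in place of 3 among the pairs. Against macrophage and T-cell lymphoma 1 member was called as deposited, 0 with quantile normalization and 0 with arrays scaled to 1 SD. The count was 2 with the image run as a random block and 3 with the replicate block. The shares of all features called in these settings were 1.55%, 0.552%, 0.0943%, 2.88% and 2.72%, in the same order. With single arrays left out, both counts fell for the myeloma and mammary tumor arrays and rose for the fibroblast arrays. For the 3 blood-cell lines against the other 8, the count of 3 became 0 with quantile normalization, 0 without the myeloma line, 0 without T-cell lymphoma and 1 without macrophage. The causes of these changes were not tested. The replicate block ended no call of a member in the 2 myeloma comparisons or in the single-line comparisons, and it was not run on the blood-cell comparison, which uses line means. With 8 lines on 1 array each, a probe that varies more in those lines than in the pairs has too small an error, and a gene's ratio to the pool does not give its level against other genes.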
